A study of Mus musculus with 12 samples.

Results

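The genes described here encode the proteins of the mitochondrial ribosome (mitoribosome), measured in bone marrow of mice that carried T-ALL, T-lineage acute lymphoblastic leukemia, a malignancy of T-cell precursors. Members were all rows of the expression table whose gene name starts with Mrpl or Mrps and a digit, without the names marked as pseudogenes (-ps), which left out 4 names. This gave 77 of 38339 gene identifiers, 48 with Mrpl names (large subunit) and 29 with Mrps names (small subunit). The rule reads gene names alone. Recipient mice had been transplanted with 1 of 6 primary leukemias, were moribund when treated, and received vehicle (VEH) or dexamethasone (DEX, a synthetic glucocorticoid) 4 h before marrow was taken. Total RNA of the marrow, after lysis of red cells, was sequenced from 1 VEH and 1 DEX recipient of each leukemia, giving 6 VEH and 6 DEX libraries in 6 pairs. All 12 libraries carry the strain label C57BL/6 x 129Sv/Jae F1. The labels name no driver, transgene or resistant group for any leukemia. Leukemias are numbered 1 to 6 here. The replicate is the leukemia, so a difference within a pair also holds the difference between 2 mice.

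Mitochondria keep their own small genome, which encodes core subunits of the respiratory chain and the RNA components of the mitoribosome. All proteins of the mitoribosome are encoded in the nucleus, made in the cytosol and imported. Some descend from the bacterial ribosome and others were added during the evolution of mitochondria. The transcription factor Myc, which drives growth in T-ALL, is known to raise genes for ribosomes and for mitochondria, and glucocorticoids are known to lower Myc in lymphoid cells.

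The values were FPKM (fragments scaled to gene length and library size), so levels can be compared between genes per length. Between 11778 and 12970 genes reached 1 FPKM in a library. The file gives no counts. Depth, judged roughly from the smallest values of sparsely covered genes, was 11400000 to 64700000 fragments per library. Summed FPKM of 12 T-cell markers was 2800 to 4894 in VEH and 2486 to 4663 in DEX, none of them was at 0 in all libraries, and 4 of 11 tested fell with DEX by the test given below (Lck, Cd3g, Cd5 and Cd2). That count was 1 without leukemia 4 or leukemia 5, 2 without leukemia 3, 3 without any other leukemia and 0 without the pairing. That of 16 granulocyte and monocyte markers was 2323 to 9315 in VEH (median 3745) and 1495 to 5505 in DEX (median 2403), and 2 of them fell (Cybb and Ltf). That count was 6 without leukemia 3 and 0 with any other leukemia left out or without the pairing. The median difference of these markers on the log2 scale was -0.72, -1.26, 0.61, 0.23, -0.38 and -1.31 in leukemias 1 to 6, so their direction was not shared by all pairs. RNA of other marrow cells was thus present. Summed FPKM of 9 erythroid markers was 8.67 to 1178 in VEH and 14.2 to 151 in DEX, and that of 8 B-lineage markers was 1.23 to 51.6 and 1.14 to 8.40. The part of these cells in the results below was not tested. In such bulk samples, fewer cells of a type and less RNA per cell cannot be told apart.

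All 77 members reached at least 1 FPKM in all 12 libraries, and all were among the 12358 genes tested. By their place in the known structure, 50 belong to the large subunit and 26 to the small one. Mrps18a and Mrps30, despite their names, sit in the large subunit, and Mrps36 is now known as a component of the 2-oxoglutarate dehydrogenase complex. Of the 76 ribosomal members, 46 have a bacterial counterpart and 30 are specific to mitochondria.

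Differences between DEX and VEH are on the log2(FPKM + 1) scale, from a limma model with the leukemia as a block, and p-values are adjusted over all tested genes (Benjamini-Hochberg). A gene is said to have risen or fallen where the adjusted p was under 0.05. Most members changed little within 4 h of dexamethasone. Of 77 members, 3 fell (Mrps6, Mrpl53 and Mrpl12) and 0 rose. Over all tested genes 9.28% fell and 4.27% rose, beside 3.9% and 0% of members. At an unadjusted p under 0.05 in limma, 15 members were lower and 2 higher, against 20.5% and 9.69% of all tested genes. The median member difference was -0.06, and that of all tested genes was -0.05. Members spanned -0.46 (Mrps6) to 0.19 (Mrps11), with 54 below 0 and 23 above. Of all 12358 tested genes, 7450 lay below 0 and 4908 above. The count that fell was 1 (Mrpl53, 1.3% of members) in 4 alternative settings. All tested genes fell at 3.96% without leukemia 1, 3.40% without leukemia 5, 1.34% with no filter and 0.372% without the pairing. The count was 9 (11.7%) after rescaling to TPM, against 14.9% of all tested genes, and this moved the median of all genes to -0.16. The share of members was thus close to that of all genes with no filter, and above it without the pairing.

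**Figure D1:**
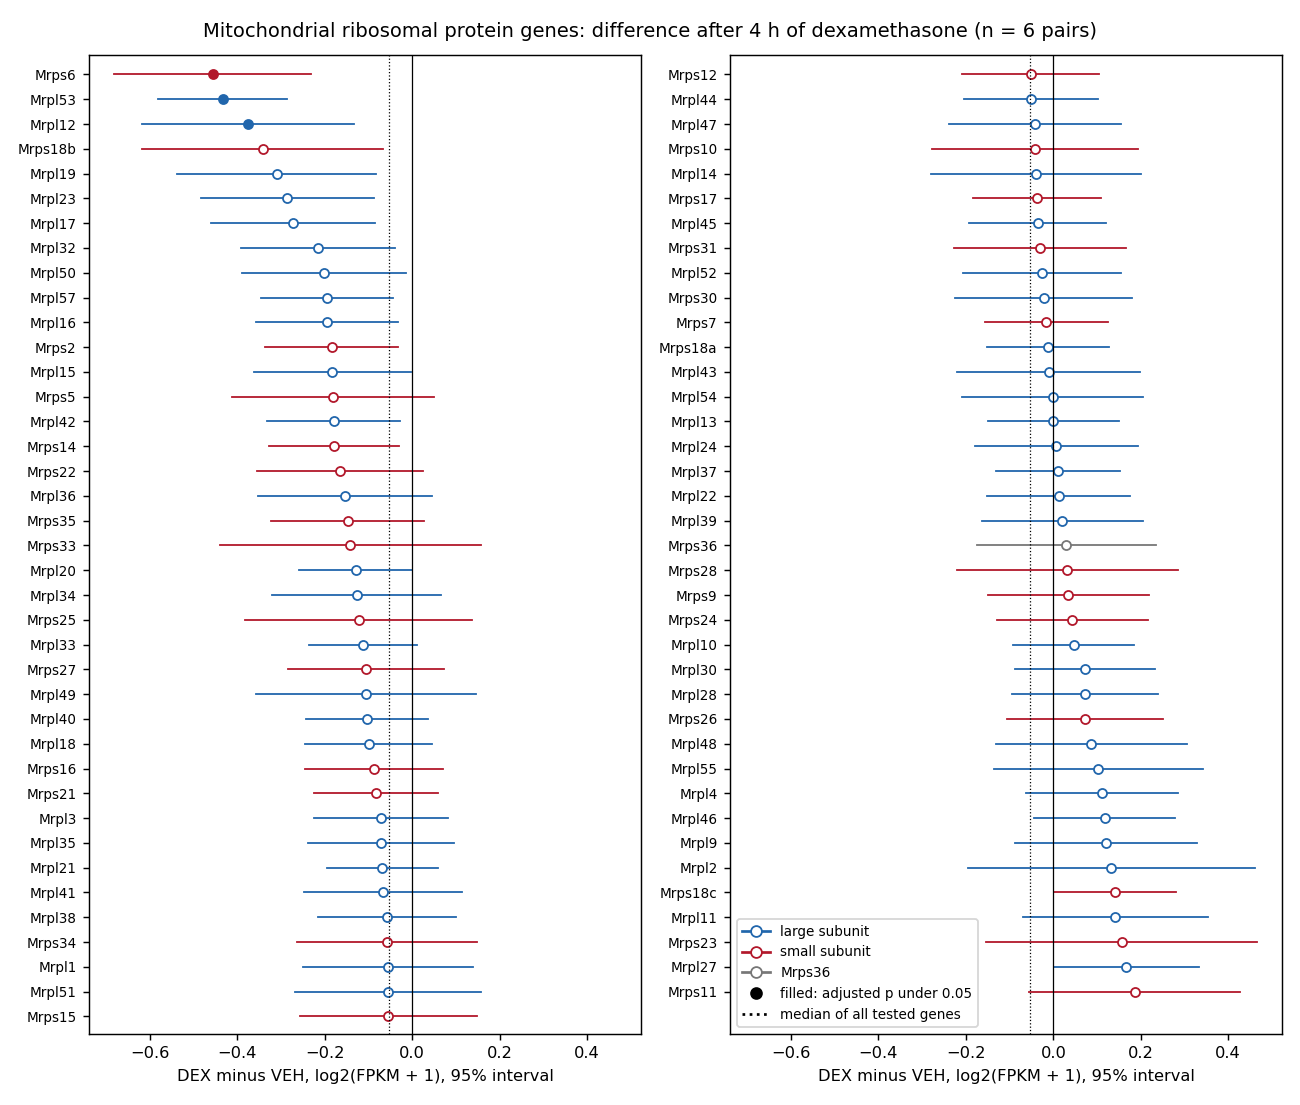
Difference between DEX and VEH for each of the 77 members, on the log2(FPKM + 1) scale, with the 95% interval from limma (n = 6 pairs), ordered by size. Colour gives the subunit, filled points passed an adjusted p of 0.05, and the dotted line is the median of all tested genes (-0.05). The 3 filled points lie at the low end, and most intervals cross 0.

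The intervals show how large a change these data leave room for. For 72 of 77 members the 95% interval lay within 0.5 of 0 on the log2 scale. It did for 69.9% of all tested genes and for 76.0% of those with a mean FPKM within the range of the members. The 5 other members were Mrpl12, Mrpl19, Mrpl53, Mrps18b and Mrps6. Among the members that did not pass, the intervals reached -0.62 at one end and 0.47 at the other.

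Mrps6 (ENSMUSG00000039680) encodes bS6m, a small-subunit protein with a bacterial counterpart that lies on the platform beside the bS18 protein. Its gene lies on chromosome 16 from 92058270 to 92112227 on the plus strand of GRCm38. Mrps6 was at 8.31, 10.5 and 29.8 FPKM (lowest, median and highest) in VEH and at 5.60, 7.17 and 22.9 in DEX. The groups overlapped, because leukemia 6 was high in both libraries, yet DEX was the lower library in all 6 pairs. The VEH mean was 13.97 ± 8.31 FPKM and the DEX mean 10.1 ± 6.62 FPKM (SD, n = 6). Mrps6 fell by 0.46 ± 0.10 (SE; limma adjusted p = 0.020), and single leukemias differed by -0.10 (leukemia 3) to -0.78 (leukemia 2). The difference of Mrps6 did not pass without leukemia 1 (-0.45, limma adjusted p = 0.0619) or without leukemia 5 (-0.41, limma adjusted p = 0.0716). The gene also overlaps Slc5a3, a myo-inositol transporter gene on the same strand, which was at 3.63 FPKM in VEH and 2.73 in DEX (difference -0.37, limma adjusted p = 0.124). Reads from the shared stretch cannot be assigned to either gene from the table.

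Mrpl53 (ENSMUSG00000030037) encodes mL53, a large-subunit protein that bacteria lack. It lies on chromosome 6 from 83109040 to 83109939 on the plus strand. Mrpl53 was at 20.8, 24.0 and 26.5 FPKM (lowest, median and highest) in VEH and at 15.8, 17.2 and 18.7 in DEX. All 6 DEX libraries lay below all 6 VEH libraries, and Mrpl53 was the single member with that separation downward, which 1.34% of all tested genes showed. The VEH mean was 23.7 ± 2.44 FPKM and the DEX mean 17.2 ± 0.953 FPKM (SD, n = 6). Mrpl53 fell by 0.43 ± 0.06 (SE; limma adjusted p = 0.00488), with single leukemias between -0.25 (leukemia 6) and -0.54 (leukemia 1). Its drop was thus more even over leukemias than that of Mrps6. A second annotated gene model, Gm42688, covers Mrpl53 on the same strand. Gm42688 was at 8.14 FPKM in VEH and 6.71 in DEX (difference -0.26, limma adjusted p = 0.157), and how fragments were divided between both models is not given in the sources used here.

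Mrpl12 (ENSMUSG00000039640) encodes bL12m, the protein of the flexible stalk through which translation factors reach the ribosome. It lies on chromosome 11 from 120484613 to 120489065 on the plus strand. Mrpl12 was at 19.6, 26.6 and 33.9 FPKM (lowest, median and highest) in VEH and at 13.99, 21.02 and 26.2 in DEX. The groups overlapped, with DEX the lower library in all 6 pairs. The VEH mean was 26.8 ± 5.53 FPKM and the DEX mean 20.4 ± 4.02 FPKM (SD, n = 6). Mrpl12 fell by 0.38 ± 0.11 (SE; limma adjusted p = 0.0498), just past the threshold. The single differences were wide, from -0.06 in leukemia 2 and -0.08 in leukemia 6 to -0.85 in leukemia 1. Its difference did not pass without leukemia 1 (-0.28, limma adjusted p = 0.118), leukemia 3 (-0.34, 0.102), leukemia 4 (-0.40, 0.0936) or leukemia 5 (-0.36, 0.132).

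**Figure D2:**
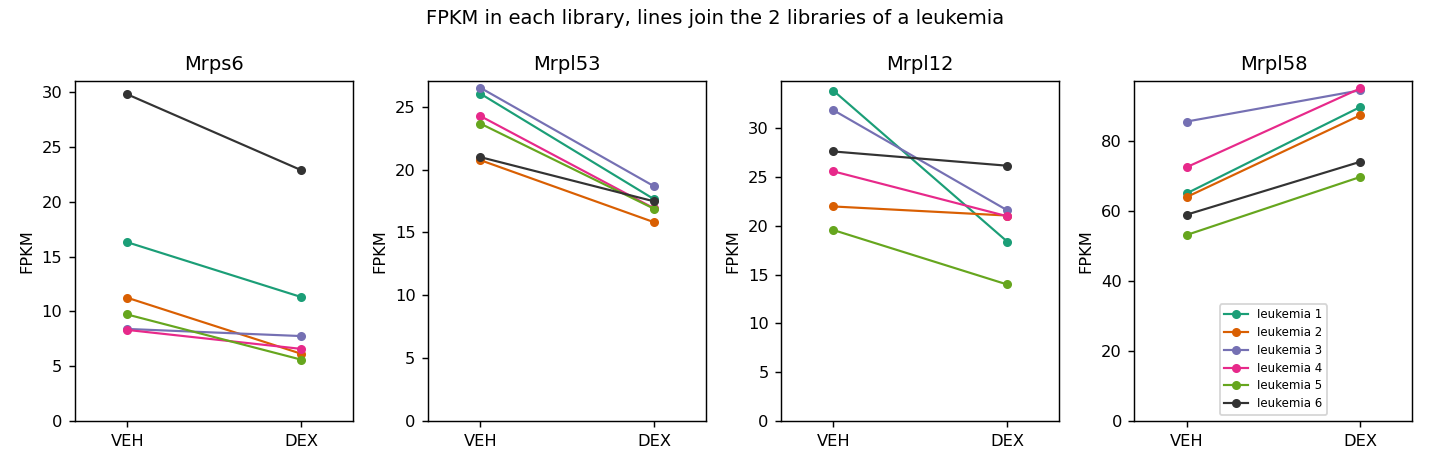
FPKM (linear axis from 0) of Mrps6, Mrpl53, Mrpl12 and Mrpl58 in each library, with lines that join the VEH and DEX library of a leukemia. All 6 lines slope down for the first 3 genes and up for Mrpl58, and Mrps6 stands apart in leukemia 6.

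The sequences before the start sites of the 3 genes that fell are shown to set their promoters side by side (RefSeq, GRCm38.p6, plus strand, 250 bases before the annotated start). Capitals mark matches to CCGGAAG, a core of sites for ETS-family factors such as GABP, on either strand.
Mrps6 (chr16:92058086-92058335): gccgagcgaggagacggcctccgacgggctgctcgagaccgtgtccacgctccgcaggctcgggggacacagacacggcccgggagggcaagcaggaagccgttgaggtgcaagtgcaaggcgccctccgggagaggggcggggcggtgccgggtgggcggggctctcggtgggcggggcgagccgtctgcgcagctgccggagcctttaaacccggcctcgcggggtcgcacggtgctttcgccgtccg
Mrpl53 (chr6:83108858-83109107): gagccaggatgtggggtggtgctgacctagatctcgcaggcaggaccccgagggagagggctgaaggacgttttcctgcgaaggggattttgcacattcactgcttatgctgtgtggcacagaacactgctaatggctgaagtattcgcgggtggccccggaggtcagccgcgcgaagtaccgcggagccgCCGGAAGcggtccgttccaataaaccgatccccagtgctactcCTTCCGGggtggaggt
Mrpl12 (chr11:120484387-120484636): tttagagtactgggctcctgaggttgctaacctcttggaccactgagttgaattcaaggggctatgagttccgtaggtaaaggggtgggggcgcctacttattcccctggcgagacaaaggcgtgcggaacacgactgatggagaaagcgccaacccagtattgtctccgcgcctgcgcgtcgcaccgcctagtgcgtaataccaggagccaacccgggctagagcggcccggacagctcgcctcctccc
The Mrpl53 promoter held 2 matches, which begin 59 and 16 bases before the RefSeq start. The gene spans given above are from GENCODE, whose starts for these 3 genes lie further upstream, within the printed windows. Both Mrpl53 matches thus lie inside the Mrpl53 span given above. The windows of Mrps6 and Mrpl12 held no match to any of the 5 motifs searched.

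Promoters of 68 member genes were in the RefSeq table (74 windows of 300 bases, 250 before to 50 after the start, of 32851 in all), and both strands were searched. CCGGAAG was in 33.8% of the member windows and in 8.86% of all windows. Counted by gene, it was near 25 of 68 members (36.8%) and 22.7% of 8370 tested protein-coding genes. The E-box CACGTG, which Myc and related factors bind, was in 9.46% of member windows and 7.15% of all, and near 7.35% of member genes against 12% of tested coding genes. The motif of the factor YY1 was in 6.76% of member windows and 0.633% of all, and near 7.35% of member genes against 2.09% of tested coding genes. The palindromic motif of NRF1 was in 4.05% of member windows and 0.971% of all, and near 4.41% of member genes against 2.63% of tested coding genes. The full palindromic glucocorticoid response element was in 0 member windows and in 0.00913% of all, and near 0.0119% of tested coding genes. A motif this rare would hardly be met in 74 windows, so the 0 does not show that members lack receptor sites. A match is a stretch of letters, not a bound site.

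The position of member genes showed a further shared feature. Of 76 members matched to the annotation, 25 (32.9%) start within 500 bases of a protein-coding gene on the opposite strand, against 15.2% of tested protein-coding genes. Mrps11 and Mrpl46 share such a start region with each other. Of 24 partner genes tested, 1 fell and 0 rose, beside 9.28% and 4.27% of all tested genes. These 24 include Mrps11 and Mrpl46, which are members. The partner that fell was Mtbp, which differed by -0.40 ± 0.08 (SE; limma adjusted p = 0.0182), while Mrpl13 beside it differed by -0.00 (limma adjusted p = 0.999). Members lie on 17 chromosomes, with 10 on chromosome 11 and 8 on chromosome 17, and 31 are overlapped by a gene on the other strand.

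By subunit, 2 of 50 large-subunit genes fell and 0 rose (median -0.05), and 1 of 26 small-subunit genes fell and 0 rose (median -0.06). By origin, 2 of 46 genes shared with bacteria fell (median -0.05) and 1 of 30 mitochondria-specific genes fell (median -0.06). The 10 mitochondria-specific genes of the small subunit had a median of -0.11 with 0 past the threshold. Over all tested genes 9.28% fell and 4.27% rose. No difference between these sets was tested.

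Each finer site in the ribosome held 0 or 1 gene that fell, beside 9.28% of all tested genes. With 3 to 6 genes per site, such counts do not set a site apart. In the stalk, Mrpl12 fell while its neighbours Mrpl10, which anchors the stalk, and Mrpl11, at the stalk base, differed by 0.05 and 0.14 (limma adjusted p = 0.644 and 0.337). On the platform of the small subunit, 1 of 5 genes passed, which was Mrps6. Mrps18c, which encodes the bS18 protein beside it, had a mean of 51.7 ± 7.71 FPKM with VEH and 57.1 ± 8.69 FPKM with DEX (SD, n = 6). Mrps18c differed by 0.14 ± 0.06 (SE; limma adjusted p = 0.163) and was the single member higher in all 6 leukemias, as were 5.97% of all tested genes. Around the catalytic centre (4 genes), along the exit tunnel (6 genes) and in the head of the small subunit (4 genes), 0 genes passed in either direction. These sites, and the genes Mrps18b, Mrpl19, Mrpl23, Mrps11, Mrps18c, Mrpl10, Mrpl11, Mrpl2 and Mtbp, were chosen after their values were seen.

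Several members lay close to the threshold on the low side. Mrps18b, a mitochondria-specific small-subunit gene also called mS40, differed by -0.34 (limma adjusted p = 0.0968), with -0.92 in leukemia 5 and -0.64 in leukemia 1 but -0.07 in leukemia 2. Mrpl19 differed by -0.31 (limma adjusted p = 0.0738). Both were lower in all 6 leukemias, among 10 members with that pattern (13.0%, against 13.7% of all tested genes). Mrpl17, which encodes bL17m near the tunnel exit, had 20.9, 28.9 and 44.7 FPKM (lowest, median and highest) in VEH and 16.3, 26.2 and 33.5 in DEX. The groups overlapped, and Mrpl17 was lower in 5 of 6 leukemias (difference -0.27, limma adjusted p = 0.0609).

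Mrpl23 (uL23m, at the tunnel exit) needs care. It had a mean of 6.27 FPKM over all libraries, whereas a processed pseudogene, Mrpl23-ps1, was listed at 78.1 FPKM and is 100% identical to it over 507 bases. Mrpl23 differed by -0.29 (limma adjusted p = 0.0620) and Mrpl23-ps1 by 0.09 (limma adjusted p = 0.475). How fragments were divided between them sets both levels, so the level of Mrpl23 is uncertain. Of 76 members compared, 19 had a copy of at least 95% identity over at least 250 bases, 11 had one in the table, and Mrpl23 was the single one with a copy at 10% or more of its own level.

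The members with the smallest differences were genes of the large subunit. Mrpl13 (uL13m) was at 34.7, 43.8 and 58.3 FPKM (lowest, median and highest) in VEH and at 34.7, 42.6 and 56.8 in DEX, a difference of -0.00 with an interval from -0.15 to 0.15. Mrpl54 (mL54) differed by -0.00, with an interval from -0.21 to 0.21. Mrpl24, whose protein lies at the exit tunnel, differed by 0.01 and Mrpl43 (mL43) by -0.01, with intervals from -0.18 to 0.19 and from -0.22 to 0.20. The groups of all 4 overlapped, and a difference near 0 here is bounded by these intervals.

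The response of the members as a group varied between leukemias. Their median difference was -0.15 in leukemia 1, -0.05 in leukemia 2, -0.03 in leukemia 3, -0.00 in leukemia 4, -0.14 in leukemia 5 and -0.05 in leukemia 6. All tested genes had medians of -0.03, -0.12, -0.02, -0.01, -0.03 and -0.09 in the same order. Members lay below 0 most often in leukemia 1 (65 of 77) and leukemia 5 (55), and least often in leukemia 4 (39). Of 12358 tested genes, 6763, 6827 and 6323 lay below 0 in leukemias 1, 5 and 4. Of 85 cytosolic ribosomal protein genes 80, 74 and 50 did, and of 79 nuclear respiratory chain genes 64, 44 and 14. The lean below 0 in leukemia 1 was thus not particular to the members. The spread over members was widest in leukemia 2 (SD 0.29) and narrowest in leukemia 3 (SD 0.18). In leukemia 2, Mrps11 was at 0.72 and Mrps6 at -0.78. Signs also changed between leukemias: 27 members were below 0 in leukemia 1 and above 0 in leukemia 2. The share of all tested genes with this change was not computed. Mrpl2, a protein near the catalytic centre, differed by -0.57 in leukemia 1 and 0.64 in leukemia 2. Each of these is a single pair of mice, so no test within a leukemia was possible.

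**Figure D3:**
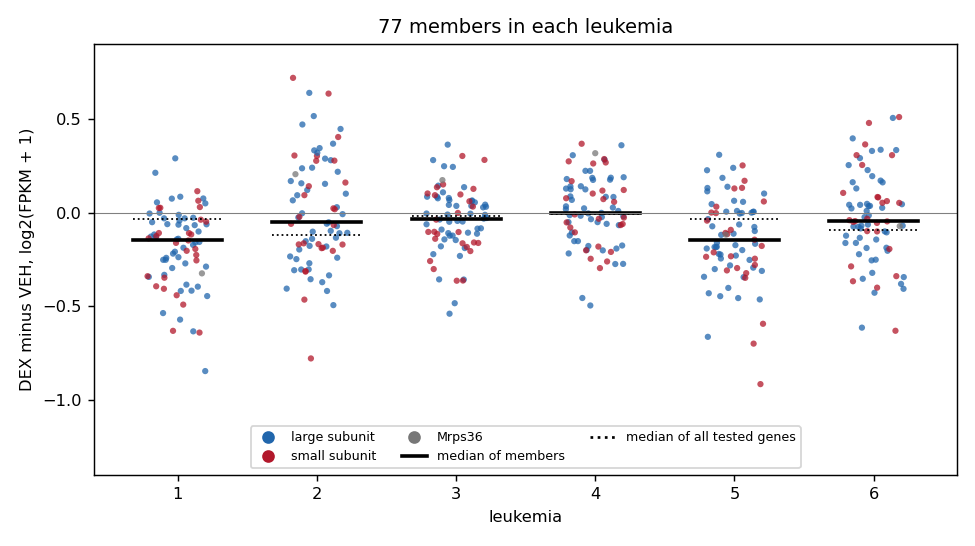
Difference between the DEX and VEH library for each of the 77 members (points, coloured by subunit) in each leukemia, on the log2(FPKM + 1) scale. Solid bars are member medians and dotted bars medians of all tested genes, and the member median lies below that of all genes in leukemias 1, 3 and 5.

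The levels of the members were moderate. Mean FPKM over the 12 libraries had a median of 25.8 over members and 13.1 over all tested genes, and the highest member was 15.7 times the lowest. The lowest was Mrpl23, whose level is uncertain, and without it the ratio was 11.9. There were 14 members under 15 FPKM, 49 between 15 and 50, and 14 above 50. The order of members was much the same in every library, with rank correlations of 0.86 to 0.97 over 66 pairs of libraries. These are correlations across genes, given as a description. For leukemias 1 to 6 in order, summed member FPKM with VEH was 2609, 2159, 2773, 2440, 2257 and 2749. With DEX it was 2319, 2160, 2715, 2490, 2071 and 2712. The groups overlapped, and the sum made up 0.456% to 0.547% of all protein-coding FPKM. The summed large-subunit level was 1.93 to 2.18 times the summed small-subunit level in every library. These sums run over 50 large-subunit and 26 small-subunit genes. Per gene, the median of mean FPKM was 25.92 for the large subunit and 24.96 for the small one. The ratio of the sums thus does not show a higher level per gene in the large subunit.

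The highest members included genes of both subunits. Mrpl52 (mL52, mitochondria-specific) averaged 99.7 ± 33.4 FPKM with VEH and 97.6 ± 31.7 FPKM with DEX (SD, n = 6). Mrpl48, which lies in the central protuberance, was at 94.9 ± 14.6 and 101.0 ± 18.6 FPKM, and Mrpl33 at 88.6 ± 16.7 and 81.9 ± 15.6 FPKM. Mrps21 was at 77.8 ± 11.6 and 74.2 ± 16.2 FPKM, and Mrps16, a gene in which mutations cause mitochondrial disease in humans, at 76.2 ± 16.2 and 73.4 ± 22.8 FPKM. In their means over all libraries, neighbours in this order lay closer than the SDs within a group. The differences of these 5 genes ran from -0.11 (Mrpl33) to 0.09 (Mrpl48), and none passed in limma.

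More members differed between leukemias than between treatments. In the limma F test on the leukemia terms, 31 of 77 members (40.3%) passed an adjusted p of 0.05, below the 51.1% of all tested genes. Among those 31, the highest leukemia was leukemia 6 for 14 members and leukemia 3 for 13, and the lowest was leukemia 5 for 13 and leukemia 2 for 12. The same count over all tested genes was not made. Summed protein-coding FPKM was also highest in leukemias 3 and 6 (508149 and 502860 with VEH, 512080 and 519992 with DEX). It was lowest in leukemias 2 and 5 with VEH (453863 and 458081) and in leukemias 5 and 1 with DEX (454543 and 462181). Ranges over leukemias of these members ran from 0.44 (Mrps7) to 1.69 (Mrps6) on the log2 scale.

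Mrps6 had the widest range. Its mean of both libraries was 26.4 FPKM in leukemia 6, 13.8 in leukemia 1 and between 7.45 and 8.70 in the other 4 (F test, limma adjusted p = 0.00036). Mrpl52 separated the leukemias in another order, with 55.8 FPKM in leukemia 1 and 69.0 in leukemia 2 against 134.7 in leukemia 3 (F test, limma adjusted p = 0.00053). Mrps16 ran from 47.0 FPKM in leukemia 2 to 99.2 in leukemia 3 (F test, limma adjusted p = 0.0010). Mrpl17 ran from 18.6 FPKM in leukemia 5 to 39.1 in leukemia 6 (F test, limma adjusted p = 0.0032). Leukemia 1 was thus low for Mrpl52 and second highest for Mrps6, so the members did not share 1 order of leukemias.

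**Figure D4:**
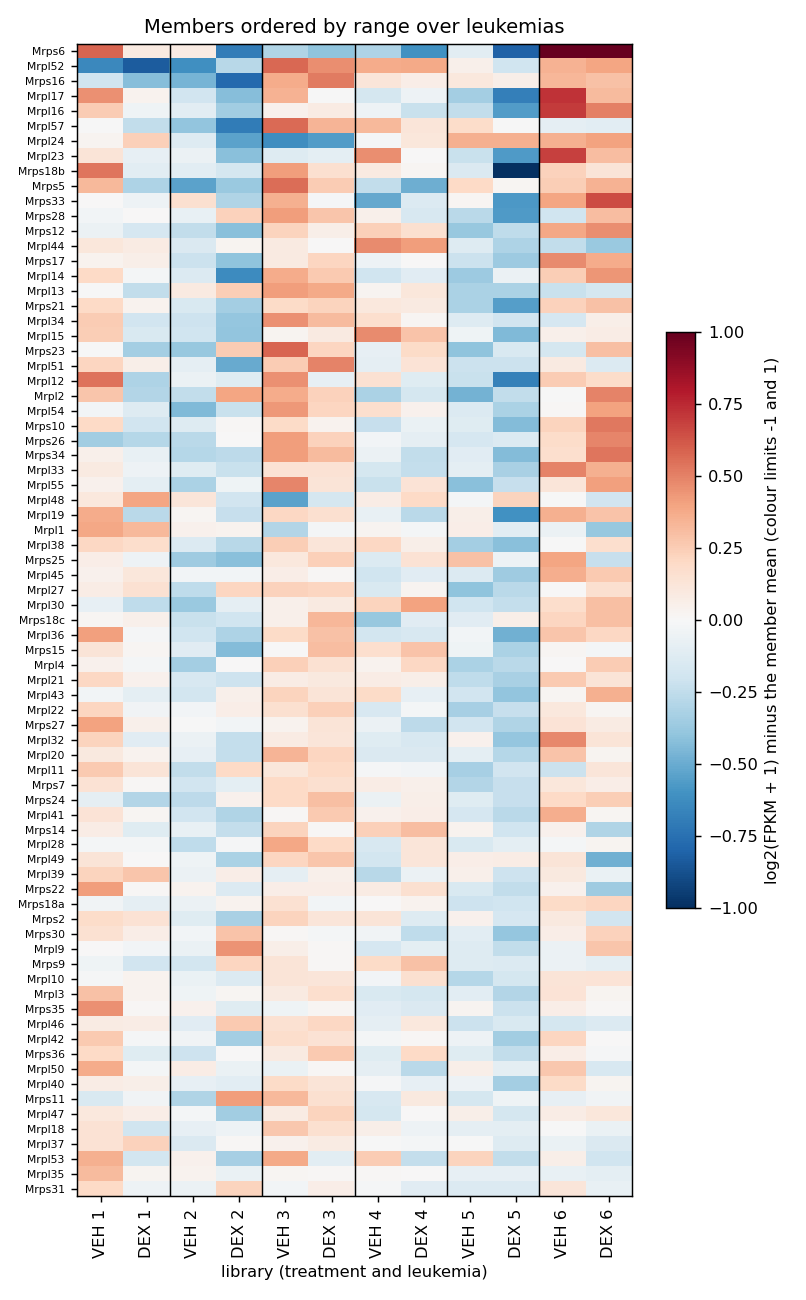
Level of each member (rows, ordered by range over leukemias) in each library (columns, VEH and DEX of leukemias 1 to 6), as log2(FPKM + 1) minus the mean of that member, with colour limits of -1 and 1. Paired columns look alike for the upper rows, where Mrps6 is high in leukemia 6 and Mrpl52 low in leukemias 1 and 2.

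Proteins of the mitoribosome with other names were read from a list of 8 names, of which 7 were found and tested. Of these, 1 rose, 1 fell, and the median was 0.01. Mrpl58, listed in the table under its older name ICT1 and so outside the members, encodes a large-subunit protein that releases peptides from stalled ribosomes. Mrpl58 was at 53.2 to 85.6 FPKM in VEH and 69.8 to 95.1 in DEX, with overlapping groups and DEX the higher library in all 6 pairs. The means were 66.6 ± 11.4 and 85.2 ± 10.7 FPKM (SD, n = 6), and Mrpl58 rose by 0.36 ± 0.06 (SE; limma adjusted p = 0.00815). When FPKM was rescaled to TPM the difference of Mrpl58 was 0.22 (limma adjusted p = 0.0928). Ptcd3 (mS39), which lies where mRNA enters the small subunit, fell from 33.9 ± 4.52 to 26.7 ± 4.14 FPKM (SD, n = 6; difference -0.34, limma adjusted p = 0.0304). Ptcd3 passed in 1 of the 6 fits that leave out a leukemia (-0.40 to -0.29, limma adjusted p up to 0.0989). Dap3 (mS29), the GTP-binding protein of the small subunit, differed by 0.01 (limma adjusted p = 0.953).

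The RNA components made in the mitochondrion showed no change past the threshold. mt-Rnr1, the RNA of the small subunit, differed by -0.05 (limma adjusted p = 0.834). mt-Rnr2, that of the large subunit, differed by -0.01 (limma adjusted p = 0.971). Their standard errors, 0.14 and 0.13, were wider than those of most members. The median of both was 0.25, -0.48, 0.33, -0.20, 0.16 and -0.23 in leukemias 1 to 6. Both lay on the same side of 0 in each pair, so the small differences above average opposite shifts.

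Genes that build or serve the mitoribosome were lower in DEX where they passed, and several were close to the threshold. Falls also outnumbered rises over all tested genes, of which 9.28% fell and 4.27% rose. The counts of all lists below stand beside these shares. Among assembly and RNA modification factors 3 of 26 fell and 0 rose (median -0.09), namely Noa1 (-0.38), Mrm3 (-0.48) and Dhx30 (-0.25). Without leukemia 1, 4 or 5 the count was 0 of 26, with 2 in each of the other 3 such fits. Among translation factors 3 of 17 fell and 0 rose (median -0.11). These were Pdf, which removes the formyl group from new peptides (-0.41), the elongation factor Tsfm (-0.29) and the RNA-binding protein Lrpprc (-0.26). With any 1 leukemia left out, 0 of 17 passed, except 1 without leukemia 4, and the limma adjusted p of these 3 genes rose to at most 0.137. Among mitochondrial aminoacyl-tRNA synthetases 1 of 20 fell and 0 rose (median -0.04), namely Yars2 (-0.42), which passed with each leukemia left out. For upkeep and transcription of mitochondrial DNA 2 of 12 fell and 0 rose (median -0.09), the helicase Twnk (-0.42) and the single-strand binding protein Ssbp1 (-0.26). Twnk passed with each leukemia left out and Ssbp1 in none of those fits (-0.29 to -0.21, limma adjusted p from 0.0529 to 0.137). The RNA polymerase Polrmt and the packaging factor Tfam differed by -0.07 and -0.15 (limma adjusted p = 0.627 and 0.151).

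Among genes of mitochondrial protein import, 6 of 27 fell and 0 rose (median -0.14). The list covers import in general, not only the route that members take. Hspd1, the mitochondrial chaperonin, went from 161 ± 48.5 to 99.6 ± 32.2 FPKM (SD, n = 6; difference -0.71, limma adjusted p = 0.00483). The chaperone Hspa9 (-0.47) and the small Tim proteins Timm10 (-0.50), Timm9 (-0.49) and Timm8a1 (-0.41) fell as well, as did the receptor Tomm70a (-0.27). Hspd1, Hspa9 and Timm10 passed with each leukemia left out, and the count was 3 without leukemia 1, 4 or 5.

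Among these lists, regulators of nuclear genes for mitochondria held the largest differences. Of 10 tested, 4 fell and 0 rose (median -0.24). Myc fell from 72.5 ± 11.1 to 28.7 ± 5.34 FPKM (SD, n = 6; difference -1.31, limma adjusted p = 0.000651) with all DEX libraries below all VEH libraries. The coactivators Pprc1 (-1.15) and Ppargc1b (-0.53) and the nuclear receptor Esrra (-0.47) also fell. Myc and Pprc1 passed with each leukemia left out, and Ppargc1b in 1 of those 6 fits. Esrra did not pass without leukemia 5 (-0.47, limma adjusted p = 0.0520). The count was 2 without leukemia 5. The factors of the NRF1 and GABP motifs above, Nrf1 and Gabpa, differed by -0.01 and -0.10 (limma adjusted p = 0.937 and 0.392). Myc differed by -1.67, -0.67, -1.48, -1.46, -1.25 and -1.35 in leukemias 1 to 6, beside the member medians given above for the same pairs.

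For comparison, 2 of 85 tested cytosolic ribosomal protein genes fell and 0 rose (median 0.02), and 0 of 79 nuclear respiratory chain genes passed in either direction in limma (median 0.06, with 1 lower and 7 higher at an unadjusted p under 0.05). After rescaling to TPM these medians were -0.12 and -0.08, below 0, and that of the members was -0.18. Differences between these lists and the members were not tested.

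**Figure D5:**
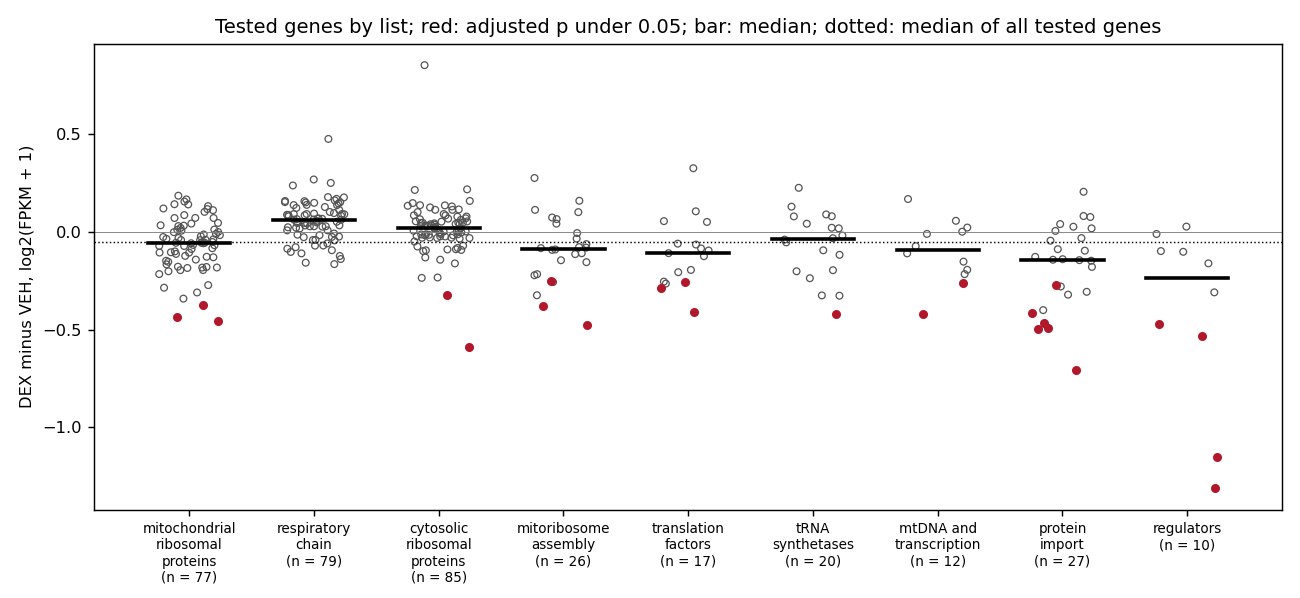
Difference between DEX and VEH on the log2(FPKM + 1) scale for tested genes of each list (points), with the list median (bar) and the median of all tested genes (dotted, -0.05). Red points passed an adjusted p of 0.05 in limma, and they reach furthest down among regulators (Myc at -1.31) and import genes (Hspd1 at -0.71).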

How the data were processed

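Total RNA of 12 marrow samples was measured, 6 VEH and 6 DEX, grouped by the labelled treatment and paired by the leukemia code in the titles. Values are FPKM as deposited by the authors in 1 table. Per the submitters' processing notes, Bowtie2 (version 2), RSEM and edgeR are named without roles beside the build mm10, and the annotation is not given in the sources used here. FPKM depends on which gene models share fragments and on abundant RNA in a library, so rescaling was tried. The kit was stranded, but whether counting used strand is not given in the sources used here.

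Genes with at least 1 FPKM in at least 6 of 12 libraries (12358) were analysed as log2(FPKM + 1). A limma 3.58.1 model (R 4.3.3; leukemia block and treatment, eBayes with trend, two-sided, Benjamini-Hochberg over all tested genes, threshold 0.05) gave differences, moderated SE and 95% intervals, and an F test gave differences between leukemias. The design assumes pairs. Each gene's group mean was subtracted, and the remaining deviations of VEH and DEX libraries were correlated across genes. These correlations were 0.55 to 0.82 for the same leukemia and at most 0.21 for different ones. The subtraction itself lowers the values for different leukemias, so they are not correlations of whole libraries. Depth was estimated with an assumed fragment of 150 bases and is approximate. Coordinates, overlaps and copies came from GENCODE M21 (GRCm38), which held 76 of 77 members; Mrpl33 was not matched. Promoters came from RefSeq (GRCm38.p6).

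The members and the gene lists were chosen with earlier results of these data known, so no list was tested. Named members were those past the threshold, the 5 with the highest mean, the 4 with the smallest difference and the 4 with the widest range over leukemias. Outside them, 8 genes were fixed by name and up to 4 of each list were taken by smallest p. Alternatives were other pseudocounts, filters and scalings, no block, other limma settings, leaving out each leukemia, and the leukemias split by the form of their sample descriptions. The rescaling to protein-coding genes and the alternatives for genes outside the members and for the F test were chosen after seeing the data.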

Additional observations from a re-analysis of the deposited data

Results flagged for a closer look

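In groups of 6 libraries or 6 differences, a value was singled out where its gap to the nearest other exceeded Dixon's 95% limit for 6 values, as a share of the whole range. Of 72 groups examined 7 held such a value, and chance alone marks about 1 in 20.

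Mrps6 in leukemia 6 stood above the other leukemias in both libraries, with 29.83 FPKM in the VEH library and 22.91 FPKM in the DEX library. Mrpl48 was low in the VEH library of leukemia 3, at 66.23 FPKM. Mrpl24 differed by -0.41 between DEX and VEH in leukemia 2, apart from the other 5 pairs, which lay above 0. Mrpl17 was the reverse, with a difference of 0.13 in leukemia 4 and values below 0 in the other 5. Outside the members, Ptcd3 was high in the VEH library of leukemia 1, at 42.93 FPKM. The glucocorticoid receptor gene Nr3c1 rose with DEX overall but differed by 0.32 in leukemia 4, below the other pairs. Causes were not tested.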

How the results depend on the processing

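The count of members that fell was 3. It was 1 with no filter, 9 after rescaling to TPM, 1 with no replicate block and 0 in leukemias 2, 5 and 6 alone. It ran from 1 (without leukemia 1, and without leukemia 5) to 3 when each leukemia was left out. In the other settings it was 2 to 4. The share of all tested genes that fell moved too, to 2.19% in leukemias 2, 5 and 6 alone. That share was 3.40% to 8.30% when each leukemia was left out. Without leukemia 4, 3.9% of members fell, against 4.71% of all tested genes. The count that rose was 0 in all 19 alternatives. Rescaling to TPM moved the median of all tested genes from -0.05 to -0.16 and that of the members from -0.06 to -0.18, so members moved with all genes, and the 9 that fell there were Mrpl12, Mrpl17, Mrpl19, Mrpl23, Mrpl53, Mrpl57, Mrps18b, Mrps5 and Mrps6. The member median ran from -0.07 to -0.04 when each leukemia was left out. Members that differed between leukemias numbered 31 (40.3%, against 51.1% of all tested genes). They numbered 20 in leukemias 1, 3 and 4 alone, 18 in leukemias 2, 5 and 6 alone, and 23 to 32 when each leukemia was left out. The share of all tested genes in these smaller fits is not given here, so these counts show nothing particular to the members.

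The call of Mrpl53 held in 18 of 19 alternatives, that of Mrps6 in 13 and that of Mrpl12 in 7; Mrpl58 held in 15. Without the replicate block, which ignores the pairing, Mrpl53 still passed. No called value changed sign, and 6 named members near 0 (Mrpl13, Mrpl24, Mrpl43, Mrpl48, Mrpl52 and Mrpl54) changed sign in at least 1 setting without passing. The causes were not tested. With 6 pairs, 1 mouse per arm and no counts, small differences can be missed.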
